A study of Mus musculus with 15 samples.

Results

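The genes described here are 34 members of the antioxidant programme of mouse ileal epithelium: the transcription factor NRF2 (gene Nfe2l2) with its partners, genes it is known to control, and the enzymes that remove superoxide and peroxides. They were taken by name from a list chosen with earlier results of these data known, so the list is not independent of them. Each one was found among the 23420 gene symbols of the count files. All 34 passed the filter on low counts, which kept 13159 genes. RNA came from ileal organoids at passage 2, which are crypt-derived epithelial cultures, here of C57BL/6 mice. The organoids spent 24 h in medium with 0.2% albumin and either 1 of 4 bile acid pools or vehicle. H10 and H90 were pools modelled on human bile acids in which 10% or 90% of the bile acids were 12α-hydroxylated, M10 and M90 were the corresponding pools modelled on the mouse, and Vehicle held no added pool. The design has 5 groups of 3 libraries, lettered a to c. The single bile acids and doses of the pools, and the age, sex and number of the mice, are not given in the sources used here, so each pool is compared as a whole mixture. The labels do not say whether the libraries within a group stem from separate cultures or animals, and p-values therefore measure the spread between these libraries, which may be technical.

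In resting cells KEAP1, the substrate adaptor of a cullin ubiquitin ligase, holds NRF2 and directs it to degradation. Electrophiles and oxidants modify cysteines of KEAP1, NRF2 then accumulates, pairs with a small MAF protein and binds antioxidant response elements near genes for glutathione synthesis, thioredoxin reduction, NADPH supply and the reduction of quinones and carbonyls. Much of this control acts on the NRF2 protein, which RNA sequencing does not measure. Ileal enterocytes take up bile acids from the gut lumen and are among the cells in which this programme is known to be inducible.

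Total counts ran from 11245807 to 28989526 per library. Levels are given as CPM (counts per 10⁶ scaled counts) after scaling of library totals by trimmed mean of M-values (TMM), and differences as log2 changes with their standard errors (SE). A gene was called higher or lower where the adjusted p of edgeR's quasi-likelihood test, Benjamini-Hochberg over all tested genes, was under 0.05. The summed level of 8 epithelial markers was 12640 to 17580 CPM over the 15 libraries, against at most 5.22 CPM for 6 leukocyte markers, of which 1 was at 0 throughout, and at most 2.76 CPM for 4 endothelial markers. Fibroblast markers (7 genes) summed to 3.38 to 4.71 CPM in H10, 4.43 to 14.98 in H90, 9.42 to 12.1 in M10, 8.21 to 12.9 in M90 and 3.03 to 5.42 in Vehicle, and Col1a1 averaged 0.049, 4.599, 6.47, 6.25 and 0.023 CPM in that order of groups. Hepatocyte markers (8 genes) summed to 199.8 to 295.8 CPM in H10, 76.1 to 237.2 in H90, 75.2 to 87.4 in M10, 71.1 to 101.1 in M90 and 184.5 to 225.3 in Vehicle. Levels of cell markers differed between groups: summed proliferation markers (10 genes) were 273.5 to 285.8 CPM in H10, 769.7 to 901.3 in H90, 134.6 to 140.8 in M10, 263.6 to 279.6 in M90 and 1195 to 1249 in Vehicle. Enterocyte markers (10 genes) summed to 20010 to 20540 CPM in H10, 14250 to 14990 in H90, 32980 to 34440 in M10, 23320 to 24680 in M90 and 12740 to 15130 in Vehicle, and goblet cell markers (7 genes) to 3922 to 4124, 2024 to 2181, 7390 to 8358, 3658 to 4042 and 1258 to 1281 CPM in the same order of groups. These sums move with many of the results below, and their part in them was not tested. In bulk RNA, fewer cells of a type and less RNA per cell cannot be told apart. A second division, by the liver transcript Mup20 above or below 10 CPM, puts H10, H90 a and Vehicle in a first library set and H90 b and c, M10 and M90 in a second. M10 and M90 can therefore be set against Vehicle or H10 within no single set, and a term for the set rests on the H90 libraries alone. Col1a1 divided the libraries in the same way, with at most 0.107 CPM in the first set and 3.74 to 8.63 in the second. Its H90 mean thus joins 0 CPM in H90 a with 5.90 in H90 b and 8.63 in H90 c. H90 a also had 14143 CPM of the ribosomal RNA transcript Rn45s, where no other library passed 3215 CPM. A further division was by genes seen with a single count, 450 to 603 per library in H10, M90 and Vehicle and 213 to 297 in H90 and M10. Comparisons between these 2 sides carry that library trait, and its part in them cannot be told apart.

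The promoter letters of members whose levels are given below are shown because antioxidant response elements are the sites through which NRF2 is known to act. Promoter windows of 300 bases, 250 before and 50 after the start, were taken from RefSeq (GRCm38.p6), where 30 of the 34 members matched with 43 windows. Both strands were searched for TGACNNNGC and TGAGNNNGC, the core letters of the element. Of the 43 member windows, 18 (41.9%) held either motif, against 27.8% of the 32851 windows in the table. TGACNNNGC was in 15 member windows and 12.4% of all windows, and TGAGNNNGC in 7 member windows and 17.6% of all windows. Stretches of 60 bases are printed 5′ to 3′ on the strand of the gene, with the 9 matching bases in capitals. A match that lies on the opposite strand appears in these lines as its reverse complement, starting with GC. The first line of Srxn1 (chr2:152105341-152105400, plus strand) begins its match 158 bases before the start, and the second (chr2:152105454-152105513) 45 bases before it. The second Srxn1 match also holds the letters TGAGTCA, the AP-1 motif. The lines for Gclm (chr3:122245398-122245457, plus strand), Mafg (chr11:120633735-120633794, minus strand) and Nfe2l2 (chr2:75704854-75704913, minus strand) lie before their genes, and those for Txnrd1 (chr10:82859089-82859148, plus strand) and Ggt1 (chr10:75571452-75571511, plus strand) lie in introns, before alternative starts. Not printed are 3 further matches of Ggt1 in 2 other windows, a match of Srxn1 after the start, and those at or just after the start in 1 of 2 windows each of Me1 and Pgd.
Srxn1, first match: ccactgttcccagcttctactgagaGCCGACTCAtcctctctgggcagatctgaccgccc
Srxn1, second match: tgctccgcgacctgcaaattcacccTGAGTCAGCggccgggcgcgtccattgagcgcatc
Gclm: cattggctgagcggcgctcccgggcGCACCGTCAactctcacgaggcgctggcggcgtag
Mafg: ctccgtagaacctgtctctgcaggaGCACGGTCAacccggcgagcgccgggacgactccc
Nfe2l2: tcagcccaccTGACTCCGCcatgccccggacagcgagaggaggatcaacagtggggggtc
Txnrd1: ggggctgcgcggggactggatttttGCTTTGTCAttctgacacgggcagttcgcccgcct
Ggt1: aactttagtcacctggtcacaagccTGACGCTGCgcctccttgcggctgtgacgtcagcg

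Windows of Keap1, Nqo1, Cat, Gpx2, Cbr3 and Akr1b8 held neither motif, which says only that these letters are not in those windows. A match is a description of letters and not of binding.

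The first question was whether each bile acid pool changed the antioxidant genes relative to vehicle. Carbonyl and epoxide-handling enzymes, malic enzyme and the glutathione-cleaving enzyme Ggt1 were the members with the highest folds: Akr1b8 stood 6.43-fold higher in M90 than in Vehicle, Me1 4.70-fold, Cbr3 4.40-fold and Ggt1 4.02-fold. The thioredoxin, glutaredoxin and glutathione peroxidase genes Txn1, Glrx and Gpx1 were lower than vehicle with each pool. The gene for NRF2 itself was higher in H10 and M90 and lower in M10, and Keap1 passed the test in no comparison. For H10 minus Vehicle, 17 members were higher and 8 lower, 25 in all, where 48.5% of all tested genes were called (24% higher and 24.5% lower). For H90 minus Vehicle, 15 were higher and 4 lower, against 21.6% of all genes called (11.7% higher and 9.86% lower). For M10 minus Vehicle, 15 were higher and 12 lower, against 64.5% of all genes (31.2% higher and 33.3% lower). For M90 minus Vehicle, 19 were higher and 6 lower, against 54.7% of all genes (26.2% higher and 28.5% lower). For the mean of the 4 pools minus Vehicle, 17 were higher and 7 lower, against 57.9% of all genes (27.7% higher and 30.3% lower). The median log2 change of the members was 0.21 in H10 and 0.10 in H90, and 0.02 in M10 and 0.28 in M90, relative to Vehicle, beside medians over all tested genes of -0.004, -0.009, -0.028 and -0.022. The 4 comparisons share the 3 vehicle libraries. Below, the groups are also described by whether their ranges overlap, and over all tested genes the ranges of pool and Vehicle did not overlap for 60% with H10, 34.4% with H90, 68.2% with M10 and 64.8% with M90.

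The split between higher and lower depended on scaling. With library totals alone the median of all genes moved to -0.134 in H10, -0.292 in M10 and -0.172 in M90 relative to Vehicle, and the members higher and lower were 17 and 13 in H10, 14 and 7 in H90, 15 and 18 in M10, 16 and 10 in M90 and 15 and 12 for the mean of the pools. Of all tested genes 2254 were then higher and 4506 lower in H10, and 1312 and 1772 in H90. The all-gene counts were 2618 and 6256 in M10, 2432 and 5180 in M90, and 2474 and 5560 for the mean of the pools. With upper-quartile scaling the split was 17 and 12 in H10 and 15 and 11 for the mean of the pools. All genes then were 2723 higher and 3770 lower in H10, and 3095 and 4569 for the mean of the pools. With a term for the library set, 12 members were called in H90 minus Vehicle, 10 higher and 2 lower, beside 714 higher and 355 lower of all genes.

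**Figure D1:**
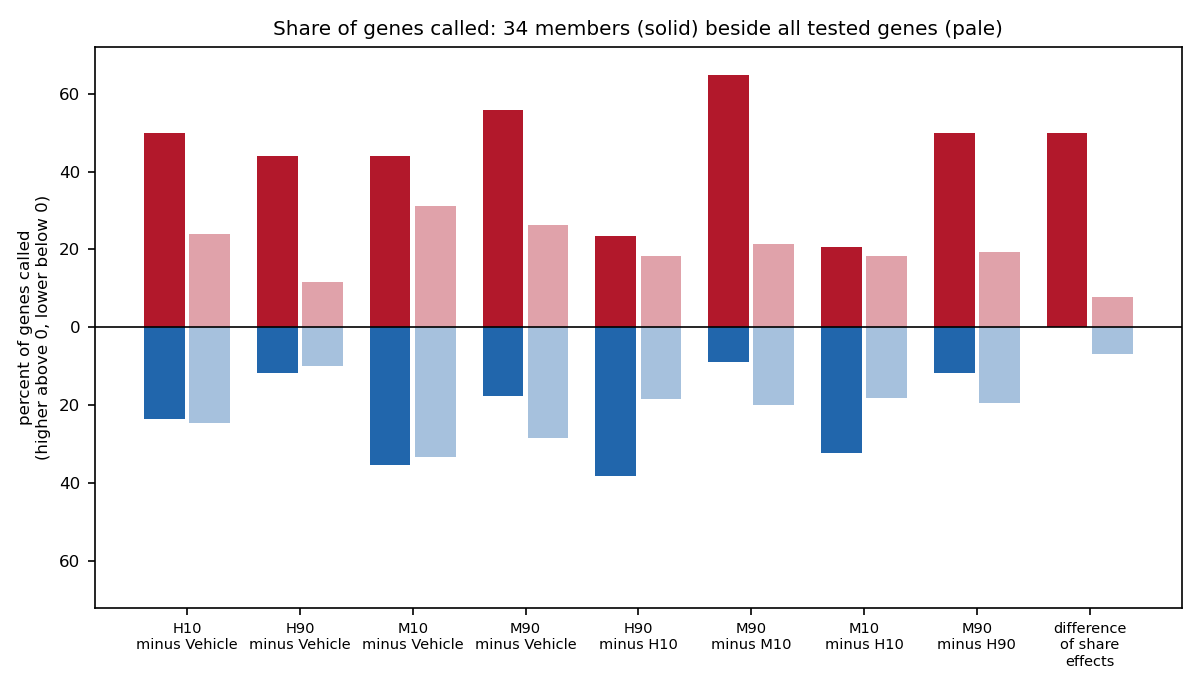
Percent of genes called higher (above 0) and lower (below 0) in each comparison, for the 34 members (solid bars) beside all 13159 tested genes (pale bars); the last pair is the difference between the M90 minus M10 and H90 minus H10 changes. The solid bar is at 0 on the lower side of that last pair, where 17 members were called higher.

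Gene positions are those of GENCODE vM21 on GRCm38. Among the regulators, Nfe2l2 (chr2:75675513-75704641, minus strand) encodes NRF2. Nfe2l2 had 674, 671 and 683 CPM in the H10 libraries, 559, 531 and 522 in H90, 461, 440.2 and 454 in M10, 585, 565 and 571 in M90 and 516, 525 and 505 in Vehicle. The order was H10, M90, H90, Vehicle and M10, and of neighbours in that order H90 and Vehicle overlapped. Nfe2l2 rose on the log2 scale by 0.39 (SE 0.040, adjusted p = 2.00e-10) in H10 and by 0.15 (SE 0.040, adjusted p = 0.00142) in M90 relative to Vehicle, and fell in M10, by a log2 difference of -0.19 (SE 0.040, adjusted p = 9.38e-05). The M10 difference is no longer called with the library set term (log2 change -0.10, adjusted p = 0.238), the M90 difference shrinks to 0.0033 with library totals alone (adjusted p = 0.950), and the mean of the 4 pools, 0.10 higher than Vehicle on the log2 scale, turns to -0.04 with that scaling.

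Keap1 (chr9:21229730-21239361, minus strand) encodes the repressor. Keap1 had 89.8, 93.5 and 99.98 CPM in the H10 libraries, 94.9, 102 and 102 in H90, 94.7, 96.5 and 80.4 in M10, 105, 95.04 and 91.8 in M90 and 89.2, 94.8 and 94.6 in Vehicle. The ranges of all neighbouring groups overlapped. The largest difference from Vehicle was in H90, 0.10 (SE 0.069, adjusted p = 0.347), with a 95% interval of -0.04 to 0.24. In GENCODE vM21, 10.9% of the exon bases of Keap1 are shared with an antisense gene, and without a stated strand setting the reads of the pair cannot be told apart. Mafg (chr11:120625117-120633600, minus strand) encodes a small MAF partner of NRF2. Mafg had 33.3, 37.1 and 35.5 CPM in the H10 libraries, 30.6, 29.6 and 35.8 in H90, 51.1, 41.9 and 41.9 in M10, 47.4, 43.1 and 49.96 in M90 and 20.4, 23.8 and 24.9 in Vehicle. Vehicle lay below every pool, M90 overlapped M10, and H10 overlapped H90. Its log2 changes from Vehicle were 0.61 (SE 0.10, adjusted p = 3.93e-06) in H10 and 0.46 (SE 0.10, adjusted p = 0.00102) in H90, and 0.96 (SE 0.10, adjusted p = 1.28e-10) in M10 and 1.02 (SE 0.10, adjusted p = 6.20e-11) in M90. The H90 difference had an adjusted p of 0.0740 with the library set term.

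Of the 6 members of glutathione synthesis and recycling, 3 were higher and 2 lower in H10, 2 higher and 2 lower in H90, 2 higher and 3 lower in M10, and 3 higher and 2 lower in M90 than in Vehicle. In that order 83.3%, 66.7%, 83.3% and 83.3% of them were called, beside 48.5%, 21.6%, 64.5% and 54.7% of all genes. Gclc (chr9:77754535-77794485, plus strand) and Gclm (chr3:122245557-122270732, plus strand) encode the catalytic and modifier subunits of glutamate-cysteine ligase, the rate-limiting enzyme of glutathione synthesis. Gclm had 173, 179.6 and 174 CPM in the H10 libraries, 139.7, 136 and 132 in H90, 190.5, 202 and 209.9 in M10, 203, 220.4 and 219.7 in M90 and 111, 113 and 104 in Vehicle. Every pool library exceeded every vehicle library, and M90 overlapped M10. Of the exon bases of Gclm, 4.71% overlap a transcript on the other strand and 3.88% a pseudogene on the same strand. Its reads are uncertain to that extent. Gclm rose on the log2 scale by 0.68 (SE 0.053, adjusted p = 1.18e-13) in H10 and 0.32 (SE 0.054, adjusted p = 2.27e-05) in H90, and 0.88 (SE 0.053, adjusted p = 3.65e-17) in M10 and 0.97 (SE 0.053, adjusted p = 4.04e-18) in M90. The catalytic subunit did not follow in every pool. Gclc had 227, 263 and 238 CPM in the H10 libraries, 182, 183 and 183 in H90, 189.7, 191 and 219 in M10, 266, 272 and 304 in M90 and 198, 202 and 198 in Vehicle. M90 and H10 stood above the other groups, M10 overlapped Vehicle, and the 3 H90 libraries lay below Vehicle. Gclc rose in H10 on the log2 scale by 0.29 (SE 0.057, adjusted p = 7.32e-05) and in M90 by 0.49 (SE 0.057, adjusted p = 3.00e-09), while its log2 change was -0.13 (SE 0.058, adjusted p = 0.120) in H90 and 0.0025 (SE 0.057, adjusted p = 0.973) in M10.

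Ggt1 (chr10:75561604-75586200, plus strand) encodes γ-glutamyltransferase, a brush border enzyme that cleaves extracellular glutathione. Ggt1 had 95.2, 99.8 and 110.1 CPM in the H10 libraries, 85.05, 98.1 and 94.8 in H90, 165, 158 and 153 in M10, 187, 188 and 164 in M90 and 41.7, 46.96 and 44.9 in Vehicle. The vehicle libraries were the lowest, the mouse-modelled pools the highest, and the human-modelled pools lay between them. Ggt1 rose on the log2 scale by 1.19 (SE 0.069, adjusted p = 4.23e-17) in H10 and 1.05 (SE 0.070, adjusted p = 1.21e-14) in H90, and 1.83 (SE 0.069, adjusted p = 3.01e-23) in M10 and 2.01 (SE 0.069, adjusted p = 5.14e-24) in M90. Gss, glutathione synthetase, averaged 213 ± 6.21 CPM in H10, 219 ± 10.6 in H90, 208 ± 5.41 in M10, 189.9 ± 7.92 in M90 and 258 ± 8.83 in Vehicle (SD, n = 3 each) and was lower with each pool. Reads of Gss are uncertain for the exon bases that overlap genes on the other strand, 6.68% with Acss2, 6.51% with Gssos2 and 5.44% with Gssos1. Glrx, glutaredoxin, which reduces glutathionylated proteins, averaged 96.1 ± 2.83 CPM in H10, 109.8 ± 4.38 in H90, 87.5 ± 6.79 in M10, 102 ± 4.74 in M90 and 146 ± 0.727 in Vehicle, and it also fell in each comparison. Gsr, glutathione reductase, fell in M10, by a log2 difference of -0.29 (SE 0.049, adjusted p = 3.37e-06).

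Of the 5 members of the thioredoxin and peroxiredoxin group, 2 were higher and 3 lower in H10, M10 and M90, and 2 were higher and 1 lower in H90. Called were thus 100% in H10, M10 and M90 and 60% in H90, beside 48.5%, 64.5%, 54.7% and 21.6% of all genes. The reductase and the repair enzyme were the 2 that rose, and thioredoxin and the 2 peroxiredoxins were those that fell, with thioredoxin alone in H90. Srxn1 (chr2:152105516-152111376, plus strand) encodes sulfiredoxin, which restores overoxidised peroxiredoxins. Srxn1 had 336, 371 and 348 CPM in the H10 libraries, 243, 257 and 246 in H90, 321, 331 and 346 in M10, 289, 331 and 326 in M90 and 195, 198 and 211 in Vehicle. Every pool library exceeded Vehicle, and H10, M10 and M90 overlapped one another in order. Srxn1 rose on the log2 scale by 0.81 (SE 0.052, adjusted p = 6.49e-16) in H10 and 0.31 (SE 0.052, adjusted p = 2.35e-05) in H90, and 0.72 (SE 0.052, adjusted p = 4.44e-15) in M10 and 0.65 (SE 0.052, adjusted p = 2.25e-13) in M90. Txnrd1 (chr10:82833951-82897712, plus strand) encodes cytosolic thioredoxin reductase. Txnrd1 had 382, 394 and 364 CPM in the H10 libraries, 289.8, 283 and 309.7 in H90, 446, 454 and 451 in M10, 399, 392 and 385 in M90 and 264, 271 and 266 in Vehicle. M10 was the highest group, M90 and H10 overlapped, and the lowest H90 library was above the highest vehicle library. Its log2 changes from Vehicle were 0.51 (SE 0.044, adjusted p = 2.11e-12) in H10 and 0.14 (SE 0.044, adjusted p = 0.0204) in H90, and 0.76 (SE 0.044, adjusted p = 1.35e-17) in M10 and 0.56 (SE 0.044, adjusted p = 1.81e-13) in M90. The H90 call was lost with the library set term (0.12, adjusted p = 0.282), with library totals alone (0.10, adjusted p = 0.0887), without H90 c (0.10, adjusted p = 0.140) and without Vehicle a (0.13, adjusted p = 0.0714).

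Txn1, thioredoxin, averaged 941 ± 37.1 CPM in H10, 1112 ± 7.55 in H90, 777 ± 12.3 in M10, 936 ± 10.1 in M90 and 1236 ± 53.1 in Vehicle. It was lower with each pool. Per kilobase of all annotated exons joined it was the most abundant member, at 1176 CPM per kb in Vehicle, beside 290.3 for Prdx1 and 1.38 for Abcc4, the least abundant. The joined exons, 1.05 kb for Txn1 and 3.04 kb for Prdx1, can be longer than the RNA present, so these ratios depend on the annotation. The fall of Txn1 in H90 was not called with the library set term (log2 change -0.16, adjusted p = 0.0729). Prdx1 and Prdx6, peroxiredoxins that reduce peroxides, fell in H10, M10 and M90, by 0.14 to 0.37 on the log2 scale. For Prdx6 in M90 the call, -0.14 (SE 0.053, adjusted p = 0.0269), was lost with the library set term (adjusted p = 0.249), without M90 a (0.111), without M90 b (0.0580) and without Vehicle c, where the log2 change was -0.08 (adjusted p = 0.224).

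Of the 6 members that remove superoxide and peroxides, 3 were higher and 2 lower in H10, 4 higher and 1 lower in H90, 3 higher and 2 lower in M10, and 5 higher and 1 lower in M90. The share called was 83.3% in H10, H90 and M10 and 100% in M90, beside 48.5%, 21.6%, 64.5% and 54.7% of all genes. Cat (chr2:103453849-103485160, minus strand) encodes catalase, which splits hydrogen peroxide in peroxisomes. Cat had 622, 693 and 672 CPM in the H10 libraries, 526, 551 and 502 in H90, 657, 680.2 and 711 in M10, 867, 936 and 964 in M90 and 440.5, 472 and 467 in Vehicle. M90 was the highest group, M10 overlapped H10, and Vehicle was the lowest. Cat rose on the log2 scale by 0.53 (SE 0.048, adjusted p = 6.99e-12) in H10 and 0.20 (SE 0.048, adjusted p = 0.00239) in H90, and 0.57 (SE 0.048, adjusted p = 3.53e-13) in M10 and 1.004 (SE 0.048, adjusted p = 7.21e-20) in M90, and the H90 difference had an adjusted p of 0.0695 with the library set term. Sod1, cytosolic superoxide dismutase, averaged 649.8 ± 20.5 CPM in H10, 658 ± 31.2 in H90, 683 ± 17.4 in M10, 864 ± 38.7 in M90 and 484 ± 13.2 in Vehicle and was higher with each pool. Sod2, the mitochondrial dismutase, was higher in M90, by a log2 difference of 0.19 (SE 0.061, adjusted p = 0.00953), which had an adjusted p of 0.658 with the library set term, of 0.645 with library totals alone (0.04) and of 0.0540 without M90 c.

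The glutathione peroxidases went separate ways. Gpx2 (chr12:76792333-76795554, minus strand) encodes the form known from the gastrointestinal epithelium. Gpx2 had 158, 179 and 163 CPM in the H10 libraries, 288, 273 and 318 in H90, 117, 121 and 133 in M10, 364, 387 and 414 in M90 and 209, 178 and 247 in Vehicle. M90 and H90 lay above Vehicle and M10 below it, while H10 overlapped Vehicle. Its log2 change from Vehicle was -0.34 (SE 0.11, adjusted p = 0.0161) in H10 and 0.47 (SE 0.10, adjusted p = 0.00556) in H90, and -0.77 (SE 0.11, adjusted p = 2.37e-05) in M10 and 0.88 (SE 0.10, adjusted p = 7.95e-06) in M90. The H10 value was -0.21 without Vehicle c and was no longer called without H10 a (-0.31, adjusted p = 0.0588), without H10 c (-0.33, adjusted p = 0.0527) or within the first library set (-0.33, adjusted p = 0.0785), and the H90 value had an adjusted p of 0.103 with the library set term. Gpx1, the ubiquitous cytosolic peroxidase, averaged 105 ± 3.95 CPM in H10, 131 ± 9.095 in H90, 84.3 ± 4.79 in M10, 95.5 ± 3.005 in M90 and 151 ± 7.39 in Vehicle. It was lower with each pool, though in H90 the call was lost with the library set term (adjusted p = 0.104), without H90 b (0.0905) and without Vehicle c (0.0819). Gpx4, which reduces lipid peroxides in membranes, averaged 293 ± 5.97 CPM in H10, 246 ± 21.5 in H90, 372 ± 15.5 in M10, 357 ± 3.07 in M90 and 214 ± 12.1 in Vehicle and was higher with each pool. For Gpx4 in H90 the log2 change of 0.19 shrank to 0.05 with the library set term (adjusted p = 0.771), and the call was also lost without H90 c (0.14, adjusted p = 0.0662) and without Vehicle a (0.15, adjusted p = 0.0726).

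Among the 5 members that supply NADPH, 1 rose with each pool. Me1 (chr9:86581371-86695953, minus strand) encodes cytosolic malic enzyme. Me1 had 83.3, 115 and 93.5 CPM in the H10 libraries, 88.3, 86.9 and 94.7 in H90, 101, 104 and 112 in M10, 167, 185 and 198 in M90 and 40.3, 37.5 and 39.5 in Vehicle. The vehicle libraries lay below every pool library and M90 above all others, and the remaining pools overlapped in order. Me1 rose on the log2 scale by 1.32 (SE 0.086, adjusted p = 1.44e-13) in H10 and 1.20 (SE 0.087, adjusted p = 8.51e-12) in H90, and 1.43 (SE 0.086, adjusted p = 7.35e-15) in M10 and 2.23 (SE 0.086, adjusted p = 4.83e-19) in M90. The enzymes of the pentose phosphate pathway had smaller differences than Me1. Pgd (chr4:149149991-149166771, minus strand) encodes 6-phosphogluconate dehydrogenase. Pgd had 517, 540.1 and 529.6 CPM in the H10 libraries, 554, 553 and 576 in H90, 453, 456 and 470.1 in M10, 551, 564 and 576 in M90 and 541, 560.1 and 575 in Vehicle. M10 was below every other group, and H90, M90 and Vehicle overlapped. Pgd was called in M10, at -0.28 (SE 0.041, adjusted p = 1.58e-07). G6pdx, the entry enzyme of the pathway, rose in M90 on the log2 scale by 0.19 (SE 0.061, adjusted p = 0.00961), a call lost with the library set term (adjusted p = 0.540), with library totals alone (0.04, adjusted p = 0.631), without M90 c (0.0572) and without Vehicle a (0.0704); 13.6% of its exon bases overlap Ikbkg on the other strand. Tkt, transketolase, had a log2 change of -0.09 (SE 0.040, adjusted p = 0.0466) in H10, which was not called when any of 9 single libraries was left out, and Taldo1, transaldolase, was called in none of the 4 pools.

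Of the 9 genes for quinone, carbonyl and haem enzymes and export, 6 were called higher with H10, 5 with H90, 6 with M10 and 5 with M90, and 2, Nqo1 and Blvrb, were called lower in M10. The called shares were 66.7%, 55.6%, 88.9% and 55.6%, beside 48.5%, 21.6%, 64.5% and 54.7% of all genes, so that of M90 was near the all-gene share. Akr1b8 (chr6:34354119-34368463, plus strand) encodes an aldose reductase-like carbonyl reductase. Akr1b8 had 109, 122 and 109 CPM in the H10 libraries, 87.04, 96.8 and 71.2 in H90, 108, 118 and 124 in M10, 172, 191 and 198 in M90 and 28.4, 25.96 and 32.98 in Vehicle. Vehicle lay far below every pool, M10 and H10 overlapped, and M90 was the highest. Akr1b8 rose on the log2 scale by 1.96 (SE 0.099, adjusted p = 9.05e-14) in H10 and 1.56 (SE 0.100, adjusted p = 4.63e-11) in H90, and 2.002 (SE 0.099, adjusted p = 2.31e-14) in M10 and 2.68 (SE 0.099, adjusted p = 2.18e-16) in M90. Cbr3 (chr16:93683215-93690990, plus strand) encodes a carbonyl reductase. Cbr3 had 55.01, 59.9 and 55.4 CPM in the H10 libraries, 33.7, 40.3 and 39.9 in H90, 36.5, 34.5 and 43.5 in M10, 96.99, 96.2 and 105 in M90 and 17.4, 21.8 and 28.1 in Vehicle. M90 stood apart above H10, and M10 and H90 overlapped. Its log2 change was 1.33 (SE 0.12, adjusted p = 3.78e-10) in H10 and 0.74 (SE 0.12, adjusted p = 4.14e-05) in H90, and 0.76 (SE 0.12, adjusted p = 3.76e-06) in M10 and 2.14 (SE 0.12, adjusted p = 2.14e-14) in M90.

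Cbr1, its paralog, averaged 415 ± 24.97 CPM in H10, 315 ± 16.8 in H90, 433 ± 21.7 in M10, 602 ± 4.86 in M90 and 224 ± 14.7 in Vehicle. Ephx1, microsomal epoxide hydrolase, averaged 346 ± 20.8 CPM in H10, 232 ± 10.7 in H90, 308 ± 8.35 in M10, 515 ± 4.84 in M90 and 139 ± 7.53 in Vehicle. Both were called higher with each pool and were highest in M90. Osgin1, an oxidative stress-induced growth inhibitor, averaged 123 ± 1.42 CPM in H10, 74.9 ± 14.3 in H90, 121 ± 4.92 in M10, 137 ± 5.66 in M90 and 43.1 ± 1.64 in Vehicle and was higher with each pool too.

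The textbook NRF2 target Nqo1 (chr8:107388225-107403206, minus strand), an NAD(P)H quinone reductase, was not called higher with any pool. Nqo1 had 58.3, 67.6 and 61.2 CPM in the H10 libraries, 77.7, 73.2 and 79.8 in H90, 37.8, 31.5 and 46.8 in M10, 67.9, 78.8 and 91.8 in M90 and 68.8, 66.2 and 79.5 in Vehicle. M10 lay below all other groups, and the ranges of M90, H90, Vehicle and H10 overlapped between neighbours. Nqo1 was lower in M10, by a log2 difference of -0.89 (SE 0.12, adjusted p = 6.05e-06), and the changes in H10, H90 and M90 were -0.20 (SE 0.12, adjusted p = 0.205), 0.10 (SE 0.12, adjusted p = 0.612) and 0.16 (SE 0.12, adjusted p = 0.297); within the first library set the H10 difference, -0.19, had an adjusted p of 0.0216. The 95% intervals were -0.15 to 0.36 in H90 and -0.10 to 0.41 in M90.

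Hmox1 (chr8:75093621-75100589, plus strand) encodes haem oxygenase 1, which degrades haem and is induced by several stress pathways. Hmox1 had 14.9, 17.4 and 14.3 CPM in the H10 libraries, 10.4, 7.81 and 7.03 in H90, 33.5, 31.2 and 20.2 in M10, 14.7, 12.1 and 13.8 in M90 and 10.2, 11.1 and 10.1 in Vehicle. The M10 libraries were the highest, and M10 c lay well below M10 a and b. Hmox1 rose on the log2 scale by 1.44 (SE 0.16, adjusted p = 6.62e-10) in M10 and 0.57 (SE 0.16, adjusted p = 0.00401) in H10, and its log2 change was -0.29 (SE 0.17, adjusted p = 0.241) in H90 and 0.37 (SE 0.16, adjusted p = 0.0576) in M90. With the library set term the M90 difference was called as well (0.84, adjusted p = 0.0268). Blvrb, biliverdin reductase B, was called in M10, by a log2 difference of -0.44 (SE 0.15, adjusted p = 0.0111). Its H90 libraries divided by library set, with 13.2 CPM in H90 a, 21.1 in H90 b and 22.2 in H90 c. Abcc4, an exporter of organic anions including bile acids, had 6.58 to 9.73 CPM as group means and passed the test in none of the 4 pools, with wide errors (SE 0.20 to 0.21).

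**Figure D2:**
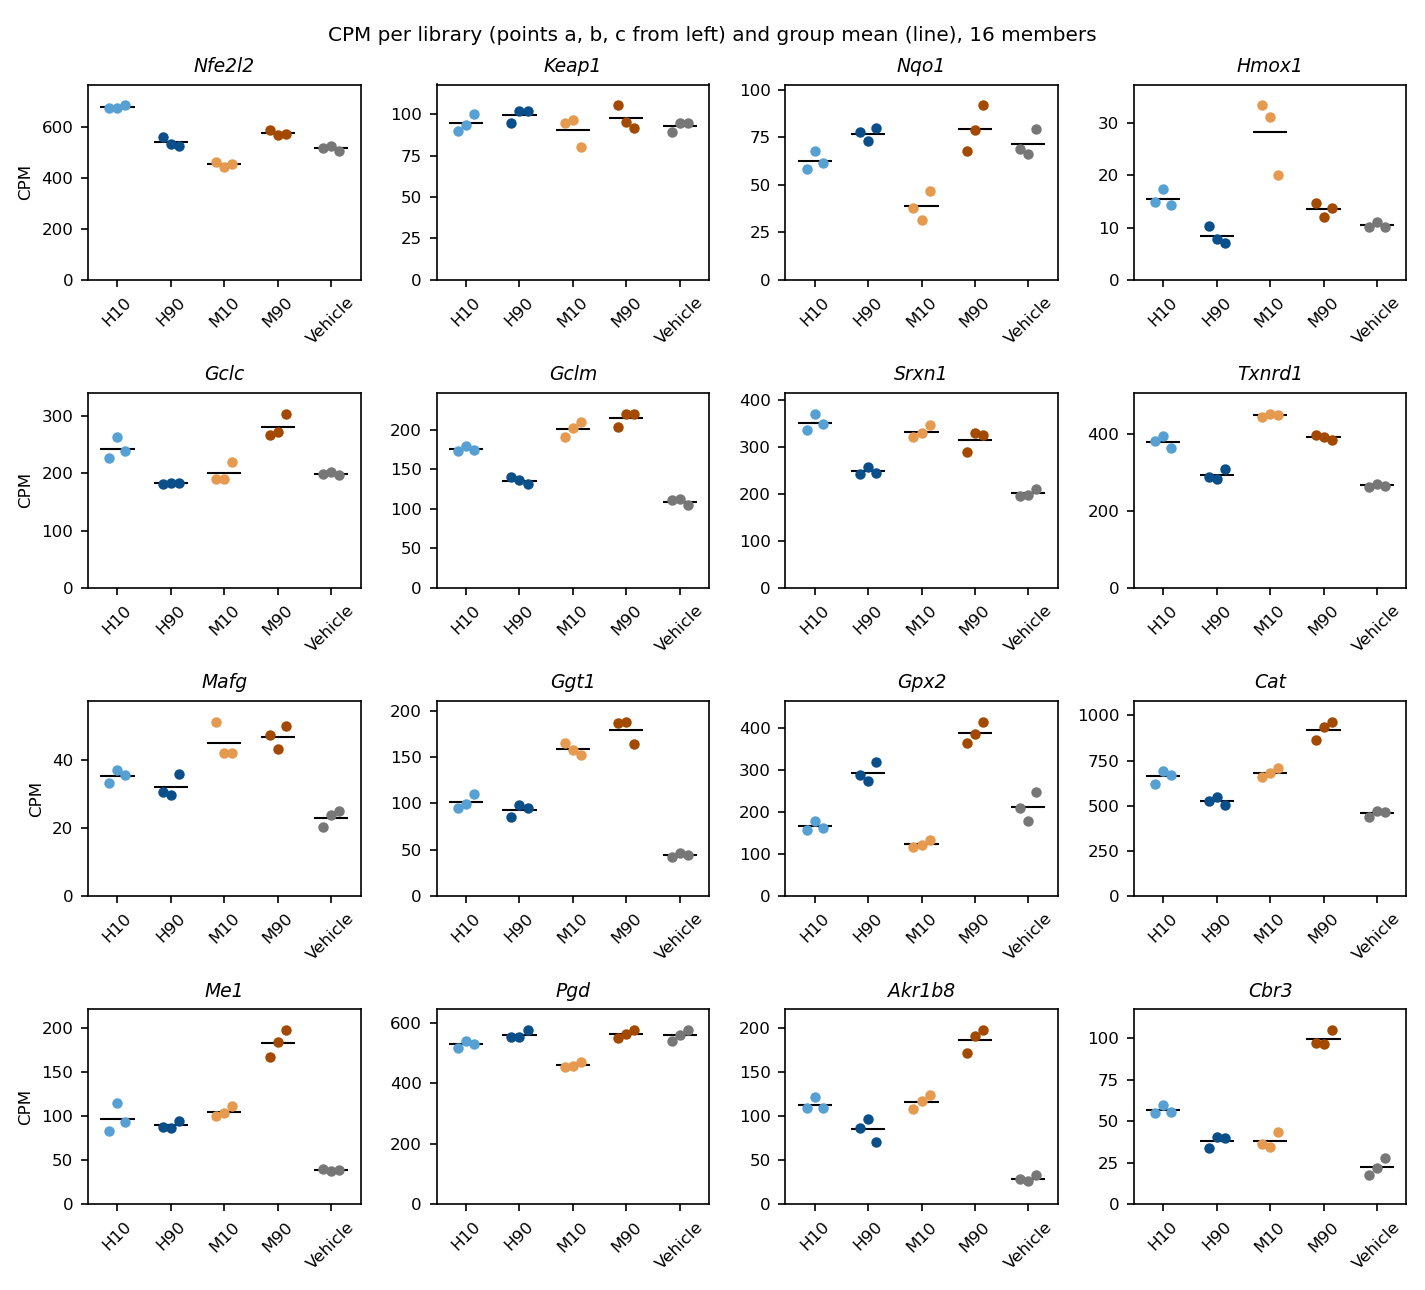
CPM of the 16 members whose values are given per library, with 1 point per library and a line at the group mean; each panel has its own axis from 0. Akr1b8, Me1 and Ggt1 have every pool above Vehicle, Keap1 has all groups overlapping, and Nqo1 is lowest in M10.

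**Figure D3:**
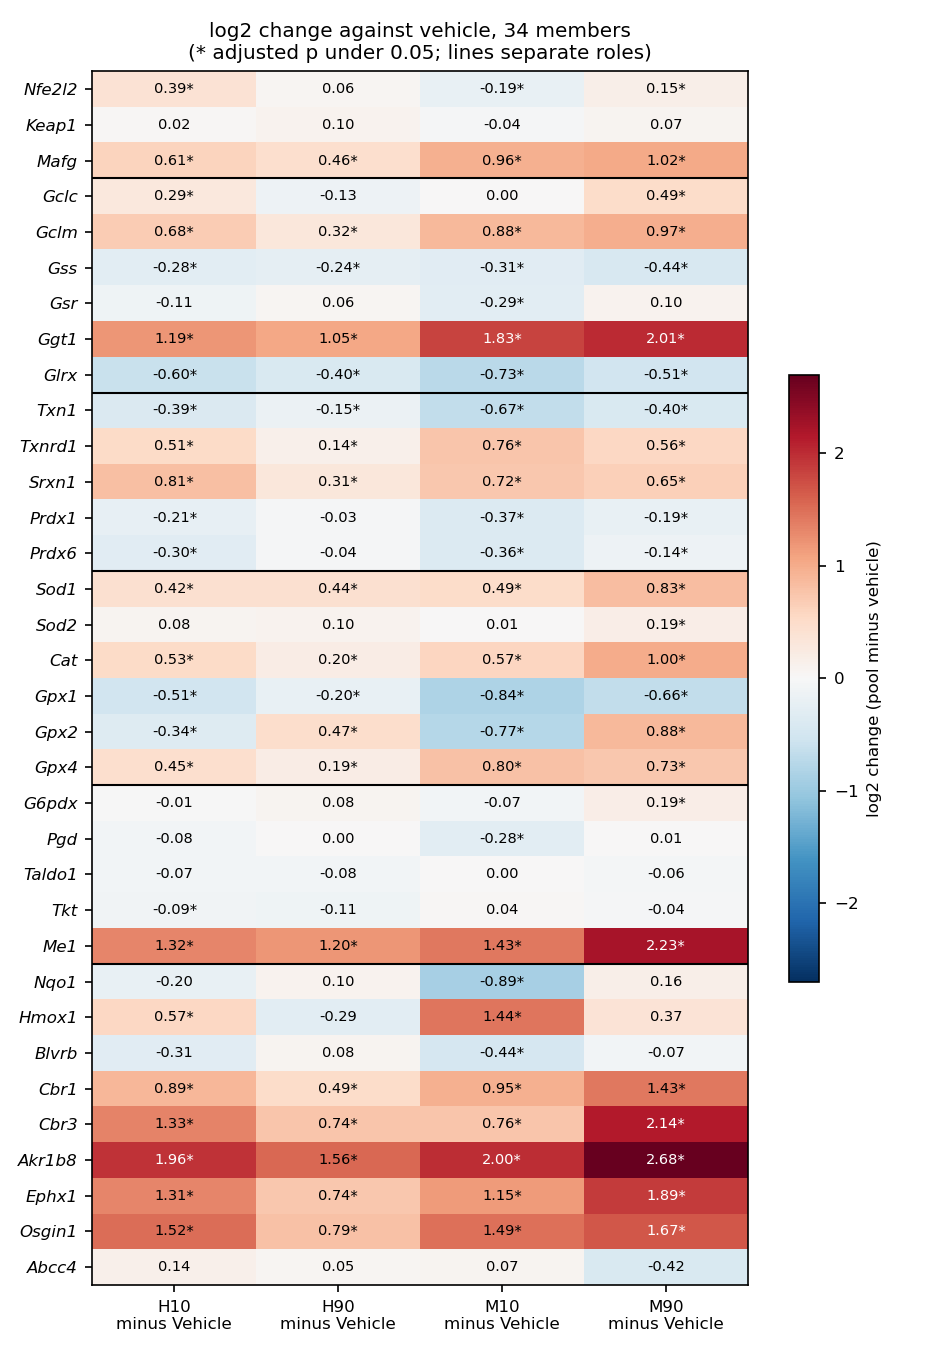
Log2 change of each of the 34 members in the 4 pools relative to Vehicle, ordered by role, with an asterisk where the adjusted p was under 0.05. Txn1, Glrx, Gss and Gpx1 are negative in each column, and the highest value is 2.68 for Akr1b8 in M90.

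The second question was what the share of 12α-hydroxylated bile acids did in each species model. In the human model Akr1b8, Cbr3, Ephx1, Osgin1, Srxn1, Gclc and Gclm were among the members lower at the high share: for H90 minus H10, 8 members were higher and 13 lower, against 36.6% of all genes called (18.2% higher and 18.4% lower). In the mouse model the members were mostly higher at the high share: for M90 minus M10, 22 were higher and 3 lower, against 41.2% of all genes (21.3% higher and 20% lower). The member medians were -0.05 for H90 minus H10 and 0.22 for M90 minus M10 on the log2 scale, beside 0.008 and 0.037 over all tested genes. With library totals alone the H90 minus H10 split became 14 higher and 13 lower, with a median of all genes of 0.100, and the M90 minus M10 split 25 higher and 1 lower, with a median of 0.150. All genes then were 3344 higher and 1651 lower for H90 minus H10, and 4084 and 1776 for M90 minus M10. These 2 comparisons share no library. Both passed the test for 17 members: 8 were higher at the high share in both models, 7 lower in the human model and higher in the mouse model, and 2 lower in both. Of all tested genes 24.3% passed both, 10.9% higher in both, 0.965% lower in the human and higher in the mouse model, 0.517% the other way round and 11.9% lower in both.

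The 7 members of opposite direction were Nfe2l2, Gclc, Cat, Cbr1, Cbr3, Akr1b8 and Ephx1. Genes seen with a single count had the same pattern, 450 or more per library in H10 and M90 and at most 297 in H90 and M10. The part of that library trait in both share comparisons cannot be told apart. Nfe2l2 changed on the log2 scale by -0.33 (SE 0.041, adjusted p = 2.33e-08) for H90 minus H10 and by 0.35 (SE 0.040, adjusted p = 6.72e-09) for M90 minus M10. Cbr3 changed on the log2 scale by -0.59 (SE 0.11, adjusted p = 1.88e-04) and 1.38 (SE 0.11, adjusted p = 1.45e-10) in the same 2 comparisons. Ephx1 changed on the log2 scale by -0.58 (SE 0.049, adjusted p = 5.75e-12) and 0.74 (SE 0.049, adjusted p = 3.82e-15), and Gclc by -0.41 (SE 0.058, adjusted p = 3.77e-07) and 0.49 (SE 0.057, adjusted p = 6.96e-09). In each of these 4 genes the H90 libraries lay below H10 and the M90 libraries above M10 without overlap. Non-overlapping ranges were found for 45.7% of all tested genes in H90 minus H10 and 50.2% in M90 minus M10 (47.5% in M10 minus H10 and 46.1% in M90 minus H90).

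Gpx2 was the member with the highest change at the high share in both models, 0.81 (SE 0.11, adjusted p = 3.72e-05) for H90 minus H10 and 1.65 (SE 0.11, adjusted p = 2.94e-08) for M90 minus M10. Hmox1 was lower at the high share in both, -0.86 (SE 0.17, adjusted p = 8.70e-05) and -1.07 (SE 0.16, adjusted p = 7.23e-07), and the H90 minus H10 value had an adjusted p of 0.0551 with the library set term. Txnrd1, the other member lower in both, changed on the log2 scale by -0.37 (SE 0.044, adjusted p = 1.18e-08) and -0.20 (SE 0.044, adjusted p = 2.71e-04), and the M90 minus M10 value was -0.09 (adjusted p = 0.0948) with library totals alone. Txn1, Prdx1, Prdx6, Gpx1, Glrx, Gsr and Blvrb were the remaining members called higher at the high share in both models, by 0.17 to 0.39 on the log2 scale. Blvrb in H90 minus H10 turned to -0.11 with the library set term, and its value was 0.60 without H90 a and 0.26 without H90 c; its calls in both comparisons were lost without several single libraries and with limma-voom (adjusted p = 0.148 and 0.0568). Gpx1 in M90 minus M10 was not called without M10 b (0.14, adjusted p = 0.112), without M90 c (0.16, adjusted p = 0.0798) or within the second library set (0.17, adjusted p = 0.0553). Glrx in H90 minus H10 was not called with the library set term (0.21, adjusted p = 0.0681), without H10 a (0.17, adjusted p = 0.0568) or H90 b (0.17, adjusted p = 0.0567). Nqo1 rose in M90 relative to M10 by 1.04 (SE 0.12, adjusted p = 2.18e-06), and was 0.30 (SE 0.12, adjusted p = 0.0671) in H90 minus H10. Pgd rose on the log2 scale by 0.29 (SE 0.041, adjusted p = 2.09e-07) in M90 minus M10, and Me1 by 0.80 (SE 0.081, adjusted p = 2.82e-09). Proliferation markers were also higher at the high share in both models (769.7 to 901.3 CPM in H90 and 273.5 to 285.8 in H10; 263.6 to 279.6 in M90 and 134.6 to 140.8 in M10). The summed enterocyte markers were lower, with 9 of 10 genes called lower in H90 minus H10, and 8 lower and 1 higher in M90 minus M10, where Fabp1 averaged 3066 CPM in M90 and 1561 CPM in M10.

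Whether the share acted differently in the 2 models was tested directly as (M90 minus M10) minus (H90 minus H10). The difference was positive and past the threshold for 17 members, against 14.8% of all genes called (7.85% higher and 6.92% lower), with a member median of 0.21 and a median over all tested genes of 0.007. By edgeR 0 members had a negative difference past the threshold, 1 (Gss) had one at an unadjusted p under 0.05, and limma-voom and DESeq2 also called 0 negative and 19 and 18 positive, where they called 8.36% and 8.44% of all genes higher and 6.79% and 7.85% lower. For the 17 members not called, values ran from -0.40 for Abcc4 to 0.21 for Mafg. Cbr3 had the highest difference, 1.97 (SE 0.16, adjusted p = 2.09e-09), followed by Ephx1 at 1.32 (SE 0.069, adjusted p = 1.51e-16) and Akr1b8 at 1.09 (SE 0.13, adjusted p = 2.75e-06). The glutathione ligase subunits differed by 0.90 (SE 0.081, adjusted p = 2.18e-10) for Gclc and 0.46 (SE 0.074, adjusted p = 1.70e-05) for Gclm, and Srxn1 by 0.42 (SE 0.073, adjusted p = 5.69e-05). Nfe2l2 itself differed by 0.67 (SE 0.057, adjusted p = 4.70e-11), the changes in the 2 models being of opposite sign. Txn1, Prdx1 and Prdx6, by contrast, differed by 0.03, -0.002 and -0.04, with 95% intervals of -0.09 to 0.14, -0.12 to 0.12 and -0.19 to 0.11. The Nqo1 difference, 0.74 (SE 0.17, adjusted p = 0.00737), had an adjusted p of 0.0533 with the library set term, and that of Gsr, 0.22 (SE 0.070, adjusted p = 0.0247), one of 0.138 and was also lost without H10 b (0.0855), M10 a (0.0732), M90 b (0.0685) or M90 c (0.0662). That of Ggt1, 0.32 (SE 0.093, adjusted p = 0.0165), was lost without H10 c (0.0869), H90 a (0.0690) or M90 b (0.0623).

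**Figure D4:**
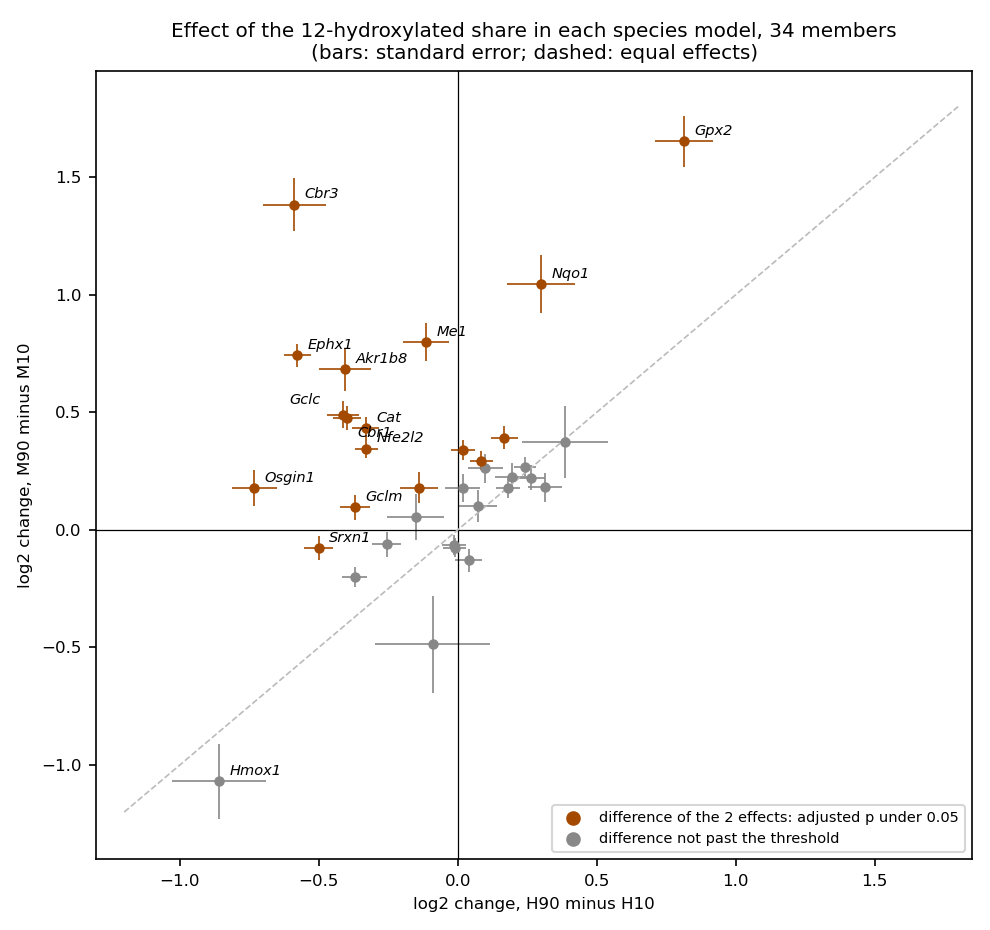
Log2 change for M90 minus M10 (vertical axis) against that for H90 minus H10 (horizontal axis) for the 34 members, with SE bars; the dashed line marks equal changes and brown points had a difference past the threshold. The 17 brown points lie above the dashed line, with Cbr3 farthest from it.

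The third question was whether the species model mattered at a given share. At the high share more members were higher than lower in the mouse-modelled pool: for M90 minus H90, 17 members were higher and 4 lower, against 38.8% of all genes called (19.2% higher and 19.5% lower), with a member median of 0.22 and a median over all genes of -0.013. At the low share, M10 minus H10 gave 7 higher and 11 lower, against 36.3% of all genes (18.2% higher and 18.1% lower), with a member median of -0.06 and a median over all genes of -0.018. Both comparisons cross the division by genes seen with a single count, whose part in them cannot be told apart. The 17 higher in M90 than in H90 held 6 of the 9 quinone, carbonyl and haem genes and 4 of the 6 members that remove superoxide and peroxides. Cat changed on the log2 scale by 0.81 (SE 0.048, adjusted p = 2.55e-16), Me1 by 1.03 (SE 0.082, adjusted p = 2.78e-11) and Akr1b8 by 1.13 (SE 0.092, adjusted p = 1.09e-09) in M90 minus H90. In M10 minus H10 those 3 genes had log2 changes of 0.04, 0.12 and 0.04, none of them called. Nfe2l2 was lower in M10 than in H10, at -0.58 (SE 0.041, adjusted p = 2.93e-14), and Ggt1 higher, at 0.64 (SE 0.066, adjusted p = 5.30e-10). For M90 minus H90 library totals alone gave 17 higher and 8 lower, beside 1648 higher and 3830 lower of all genes. With library totals alone the M10 minus H10 split was 4 higher and 18 lower, with a median of all genes of -0.152. All genes then were 1358 higher and 4050 lower. With upper-quartile scaling the split was 5 and 13, beside 1717 and 3123 of all genes. With the library set term it was 2 and 8, beside 1046 and 979. With that term 10 calls of M10 minus H10 were lost, those of Mafg (0.26, adjusted p = 0.366), Gclc (-0.29, 0.0585), Gclm (0.25, 0.0645), Gsr (-0.14, 0.314), Txnrd1 (0.22, 0.0605), Prdx1 (-0.18, 0.103), Gpx2 (-0.46, 0.153), Gpx4 (0.13, 0.340), Tkt (0.09, 0.447) and Nqo1 (-0.67, 0.0730). Over the 5 groups, M90 had the highest mean for 18 of the 34 members, Vehicle for 6, M10 for 5, H10 for 3 and H90 for 2, and the lowest mean was in Vehicle for 15, M10 for 13, H90 for 4, M90 for 2 and H10 for 0. Of all tested genes 16.1% had the highest mean in M90, 32% in Vehicle, 30.2% in M10, 7.99% in H10 and 13.7% in H90, and the lowest mean was in Vehicle for 29.9%, M10 for 35.4%, H90 for 13.6%, M90 for 13.9% and H10 for 7.22%.

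Other genes of the pathway were described from 3 lists. Of 10 tested regulators other than the members, 7 were higher and 0 lower for the mean of the pools minus Vehicle, against 27.7% of all genes higher and 30.3% lower, with a median log2 change of 0.24 beside -0.014 over all tested genes. The list was not limited to partners of NRF2 and also held Bach1, Bach2, Cul3, Rbx1, Btrc and Gsk3b. The count of higher genes therefore gives no direction of NRF2 activity, which was not tested. Sqstm1, p62, which binds KEAP1 in autophagy, averaged 477 ± 7.89 CPM in H10, 279.7 ± 7.896 in H90, 683 ± 21.9 in M10, 436 ± 5.55 in M90 and 224 ± 6.43 in Vehicle, a mean log2 change of 0.998 (SE 0.036, adjusted p = 9.17e-24). The small MAF genes Maff and Mafk rose on the log2 scale by 1.16 (SE 0.077, adjusted p = 1.06e-15) and 0.48 (SE 0.058, adjusted p = 5.49e-09), and the related factor Nfe2l1 by 0.33 (SE 0.043, adjusted p = 1.92e-08). Bach1 averaged 173.9 CPM in H10, 121.6 in H90, 216.8 in M10, 130.7 in M90 and 150.9 in Vehicle. Bach2 had its highest group mean in M10, at 10.73 CPM, and its lowest in Vehicle, a 5.79-fold range.

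Of 23 tested other NRF2 targets, 13 were higher and 4 lower for the mean of the pools, 73.9% called beside 57.9% of all genes, with a median log2 change of 0.25 and a range from -1.34 to 2.46. Slc7a11, the cystine importer that feeds glutathione synthesis, had 25.6, 33.8 and 25.99 CPM in H10, 9.83, 13.4 and 11.5 in H90, 29.9, 34.9 and 31.5 in M10, 15.4, 15.3 and 18.9 in M90 and 4.602, 4.41 and 4.26 in Vehicle. Every pool library exceeded Vehicle, and the mean log2 change was 2.21 (SE 0.13, adjusted p = 5.37e-17). The glutathione S-transferases Gsta1, Gsta4 and Gstm2 rose on the log2 scale by 0.79 (SE 0.046, adjusted p = 1.11e-15), 0.53 (SE 0.036, adjusted p = 2.84e-15) and 0.66 (SE 0.066, adjusted p = 6.58e-11). In the difference of share effects 11 of the 23 were positive and called and 1 negative, against 7.85% and 6.92% of all genes. In the same test 0 of the 10 other regulators were called, and of the 22 other redox enzymes 4 were positive and 1 negative. In M90 minus M10 the other regulators were 1 higher and 7 lower, unlike the members. The other targets were 9 and 6 and the other redox enzymes 13 and 0, against 21.3% and 20% of all genes. Of 22 tested other redox enzymes, 3 were higher and 5 lower for the mean of the pools, 36.4% called beside 57.9% of all genes, with a median of -0.09. Prdx5, a peroxiredoxin, rose on the log2 scale by 0.56 (SE 0.051, adjusted p = 4.76e-12). The endoplasmic reticulum peroxiredoxin Prdx4 fell, by a log2 difference of -1.69 (SE 0.15, adjusted p = 1.66e-12). RNA of Idh2 and Nnt, genes of mitochondrial enzymes, fell as well, by -0.99 (SE 0.057, adjusted p = 1.45e-17) and -0.72 (SE 0.070, adjusted p = 2.70e-11). How reads matching more than 1 place were counted is not given in the sources used here, so values of genes with close copies, among them Akr1b8, the glutathione S-transferases, Txn1, Prdx1 and Gpx4, are uncertain to that extent.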

How the data were processed

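Per the labels' protocols, mRNA of the 15 organoid libraries was enriched by poly-A pull-down and prepared with a TruSeq kit. The authors deposited unnormalized read counts for each gene symbol and library; the tools in the submitters' processing notes are featureCounts 1.5.0-p3, STAR 2.5.2b and bcl2fastq 2.17, and the build is mm10 (GRCm38). Annotation, strand setting and the treatment of multimapping reads are not given in the sources used here. Totals ran from 11245807 to 28989526 counts, which limits precision most for genes of a few CPM.

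Genes passing edgeR's filterByExpr (13159 of them) were scaled by TMM and tested with edgeR's quasi-likelihood F test (robust, two-sided) in 1 model with a mean per group and 10 residual degrees of freedom, and p-values were adjusted by Benjamini-Hochberg over all tested genes within each of 10 contrasts. The common dispersion was 0.00776. Intervals are 95% intervals from the same fit. Within groups no 2 libraries held identical counts. The script was run on simulated counts in which few genes were changed, in H10 alone. That run does not test the scaling where many genes differ. Software was edgeR 4.0.16, DESeq2 1.42.0 and limma 3.58.1 in R 4.3.3, with figures by matplotlib 3.10.9 in python 3.11.15. CPM use TMM-scaled totals, except those of Mup20 and Rn45s and those of Col1a1 by library set, which use plain totals.

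The members and the lists of pathway and cell type genes were chosen with earlier results of these data known. Values per library are given for 8 members (the regulator pair and classical targets) and for the 2 members of each role with the widest range of group means of log2 CPM, and up to 4 genes with the smallest adjusted p for the mean of the pools are given from each pathway list. Bach1, Bach2 and Pir are given in addition. Alternatives were scaling by RLE, by the upper quartile or by library size alone, no filter or one of 5 CPM in 3 libraries, non-robust shrinkage, limma-voom, DESeq2, the groups of a contrast alone, a replicate block, a library set term (Mup20 above 10 CPM), fits within a set, and leaving out each library.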

Additional observations from a re-analysis of the deposited data

Results flagged for a closer look

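The change with the 12α-hydroxylated share differed between the mouse and the human model, as (M90 minus M10) minus (H90 minus H10) by edgeR's quasi-likelihood test with Benjamini-Hochberg adjustment, for 17 of the 34 members, each with a positive log2 difference. Among carbonyl and epoxide enzymes and Osgin1 the differences were 1.97 for Cbr3, 1.32 for Ephx1, 1.09 for Akr1b8, 0.91 for Osgin1 and 0.87 for Cbr1, and the quinone reductase Nqo1 had 0.74. In NADPH supply they were 0.91 for Me1 and 0.21 for Pgd. In glutathione synthesis and recycling they were 0.90 for Gclc, 0.46 for Gclm, 0.32 for Ggt1 and 0.22 for Gsr. Among enzymes that remove superoxide and peroxides they were 0.84 for Gpx2, 0.77 for Cat and 0.32 for Sod1. Srxn1 had 0.42, and Nfe2l2, the gene of NRF2, 0.67. M10 and M90 belong to one library set while H10 and H90 a belong to the other. With a term for the set 16 members were called, beside 1442 of all genes, with Nqo1 (adjusted p = 0.0533) and Gsr (0.138) no longer among them. The difference also sets H10 and M90 against H90 and M10. These pairs differed in the genes seen with a single count, 450 to 603 against 213 to 297 per library. The part of that library trait in the difference cannot be told apart.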

How the results depend on the processing

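Of 8976 log2 changes of members computed under the alternatives, 8490 kept their direction and their side of the threshold, 138 lost a call, 165 gained one, 12 that were called in at least 1 of the fits changed sign, and 171 changed sign while called in neither fit. Over 340 member values, of which 222 were called, the library set term lost 27 calls and gained 10, and library size scaling lost 9 and gained 39; leaving out 1 library lost 70 and gained 41 over 5100 values. With the set term the members called were 12 in H90 minus Vehicle and 10 in M10 minus H10, and all genes called were 1069 in H90 minus Vehicle, 3958 in M90 minus Vehicle and 2025 in M10 minus H10, against 2840, 7199 and 4779 without it. Within the first library set 1687 genes were called in H90 minus Vehicle. Sign changes that involved a call were, with library size scaling, Nfe2l2 for the mean of the pools (-0.042), Gclc (-0.26), Sod2 (-0.26), Taldo1 (-0.26) and Tkt (-0.23) in M10 minus Vehicle, Pgd in M90 minus Vehicle (-0.14) and M90 minus H90 (-0.11), and Tkt in M10 minus H10 (-0.0031). Upper-quartile scaling turned Taldo1 (-0.13) and Tkt (-0.094) in M10 minus Vehicle. Blvrb in H90 minus H10 was -0.11 with the set term and -0.10 within the first set. The cause of these differences was not tested. Replicate letters were not used as pairs: residual profiles of libraries with a shared letter correlated at -0.028 to 0.079 (median 0.0021), those of other letters at -0.058 to 0.044, and for 10 of 15 libraries the best correlation was with a shared letter. With the replicate block 26 members were called in H10 minus Vehicle, 20 in H90 minus Vehicle, 27 in M10 minus Vehicle, 26 in M90 minus Vehicle, 25 for the mean of the pools and 18 for the difference of the share effects. In that order the block called 6418, 2931, 8483, 7213, 7640 and 2031 of all genes. Precision is lowest for Abcc4, Hmox1 and Blvrb, with group means of 6.58 to 28.3 CPM.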
